A study of Drosophila melanogaster with 4 samples.

Results

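The mitochondrial ribosomal protein genes were taken as every gene of the count table whose FlyBase symbol begins with mRpL or mRpS. These were 72 of 17807 genes, 47 of the large subunit (mRpL) and 25 of the small subunit (mRpS). All 72 had enough counts to be tested. They were compared between guts of wh7 females, which carry a mutant allele of dwdr4 on both X chromosomes, and guts of WT females of the yw strain. The females were 7 days old, and each of the 2 libraries per genotype came from its own pool of 20 to 30 guts. Homozygous wh7 females of the study were bred from heterozygous mothers and from mutant fathers made fertile by a dwdr4-gfp transgene, and yw served as its control strain. The labels give no treatment for either genotype. A pool of whole guts mixes every cell type of the organ, so fewer cells of a type and less RNA per cell cannot be told apart.

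The mitochondrial ribosome is a dedicated machine inside the organelle that translates the few messages encoded by mitochondrial DNA, all of them for subunits of the oxidative phosphorylation complexes. Its ribosomal RNAs come from mitochondrial DNA, whereas its proteins are encoded in the nucleus, made in the cytosol and imported. Many of the proteins have a counterpart in bacterial ribosomes, and others exist only in mitochondria. In the fly gut, mitochondrial function is known to matter both for enterocytes, the absorptive cells, and for the renewal of the lining by intestinal stem cells.

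The counts summed to 94559036 and 101610356 in wh7 replicates 1 and 2, and to 94150194 and 93603837 in WT replicates 1 and 2. The mutated gene, listed as wuho (FBgn0029857), had 2 and 3 counts in the wh7 libraries, against 1489 and 1256 in the WT libraries, so the libraries matched their genotype labels. Levels are given as CPM, the counts of a gene per 1000000 counts of its library after scaling with edgeR's TMM factors. Enterocyte markers were abundant in all libraries (summed 23760 and 25130 CPM in wh7, against 32670 and 38640 CPM in WT). The 10 germline and ovary markers measured summed to 5.43 and 6.90 CPM in wh7, against 5.90 and 3.79 in WT, and 1 of them was at 0 in every library. Members took 0.0920% and 0.103% of all counts in wh7, against 0.128% and 0.0879% in WT. In these unscaled shares of both subunits together, WT replicate 1 was therefore the highest and WT replicate 2 the lowest, with both wh7 libraries between them. After TMM scaling, summed mRpL CPM kept this order. Summed mRpS CPM was lowest in wh7 replicate 1, at 341.7, against 345.8 in WT replicate 2.

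No member of either subunit passed the test between the genotypes. In edgeR's quasi-likelihood test, with p adjusted by Benjamini-Hochberg across the 10795 genes tested, 0 of 47 mRpL and 0 of 25 mRpS genes had an adjusted p under 0.05, against a background of 0.482% of all genes in either direction. DESeq2's Wald test called 859 of the 10795 genes and also 0 members. At an unadjusted p under 0.05, 2 mRpL genes were lower in wh7 and 0 higher, and 0 mRpS genes either way, while 7.32% of all genes were lower and 7.23% higher. Replicates were separate pools, and with 2 libraries per genotype the smallest 2-sided p of an exact permutation test of a single value is 0.333.

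The subunits differed in how evenly their members lay on either side of 0. The median log2 fold change, wh7 over WT, was -0.13 over the mRpL genes, ranging from -0.59 to 0.43, and 18 of 47 were above 0. Over the mRpS genes it was -0.23, ranging from -0.41 to -0.02, and 0 of 25 were above 0. The median over all genes tested was -0.02, with 5117 of 10795 above 0. The plot of members by library shows what lies under these values: a single column, WT replicate 1, carried the highest level for most genes.

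**Figure D1:**
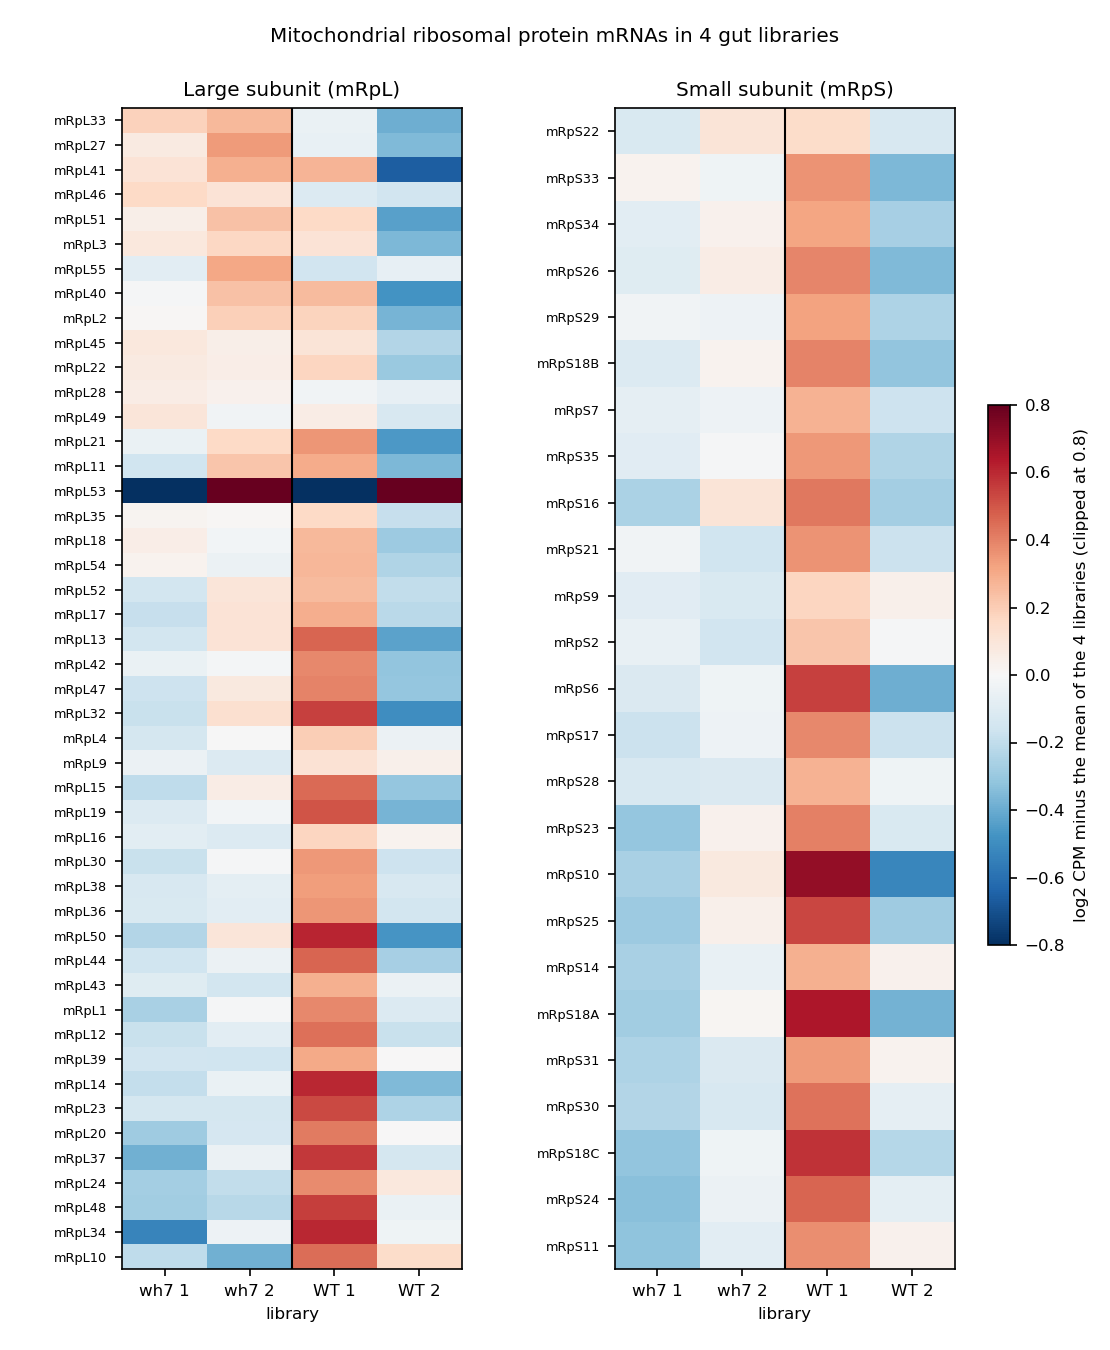
Heat map of the 72 members, rows ordered within each subunit by the log2 fold change of wh7 over WT and columns giving the 4 libraries, with colour for log2 CPM minus the mean of the 4 libraries. WT replicate 1 was the highest of the 4 libraries for 36 of 47 mRpL and 25 of 25 mRpS genes, and mRpL53 alternated between replicates 1 and 2 in both genotypes.

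WT replicate 1 was the highest of all 4 libraries for 61 of 72 members, and for 3405 of 10795 genes tested. It exceeded WT replicate 2 in 45 of 47 mRpL genes (median log2 ratio 0.50) and in 25 of 25 mRpS genes (median 0.56), whereas the median over all genes was -0.01. The exceptions were mRpL53 and mRpL55. The wh7 libraries lay much closer to each other, with a median log2 ratio of replicate 1 over replicate 2 of -0.11 for mRpL and -0.13 for mRpS. Regardless of sign, the median difference between the WT libraries was 0.50 for mRpL and 0.56 for mRpS, against 0.33 over all genes, and that between the wh7 libraries was 0.14 for mRpL and 0.13 for mRpS, against 0.16 over all genes.

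Each WT library was therefore set against wh7 on its own, using the mean log2 CPM of both wh7 libraries (computed with a prior count of 2). Against WT replicate 1, the median log2 ratio was -0.32 for mRpL and -0.45 for mRpS. At least 20% lower than in that library were 24 of 47 mRpL and 23 of 25 mRpS genes, against a background of 28.9% of all genes. At least 25% higher were 1 mRpL gene, mRpL53, and 0 mRpS genes, against 24.9%. The mRpS genes above that limit of 20% were mRpS9 and mRpS22.

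Against WT replicate 2 the medians were above 0. The median log2 ratio was 0.17 for mRpL and 0.11 for mRpS, and 34 of 47 mRpL and 16 of 25 mRpS genes were above 0. The mRpS median rested on the wh7 library used: wh7 replicate 1 alone gave 0.002, and wh7 replicate 2 alone gave 0.19. At least 25% higher in wh7 were 13 mRpL genes and 3 mRpS genes (mRpS10, mRpS26 and mRpS33), against a background of 23.1%. At least 20% lower were 2 mRpL genes, mRpL10 and mRpL53, and 0 mRpS genes, against 23.2%. In all, 44 of 72 members (28 mRpL and 16 mRpS) were below WT replicate 1 and above WT replicate 2 on these ratios, against 2142 of 10795 genes tested. Below both were 21 (12 mRpL and 9 mRpS), against 3395 of 10795 genes. Above both were 6, all mRpL, against 3310 genes. Only 1 (mRpL53) was above the first and below the second, against 1948 genes. With each library counted singly, both wh7 libraries lay strictly between the WT libraries, replicate 1 being the higher, for 22 mRpL and 14 mRpS genes, against 13.2% of all genes. The reverse order was found for 0 members, against 11.5% of all genes. With WT replicate 1 left out of the fit, the median log2 fold change became 0.19 for mRpL and 0.11 for mRpS. With WT replicate 2 left out it became -0.33 for mRpL and -0.46 for mRpS.

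**Figure D2:**
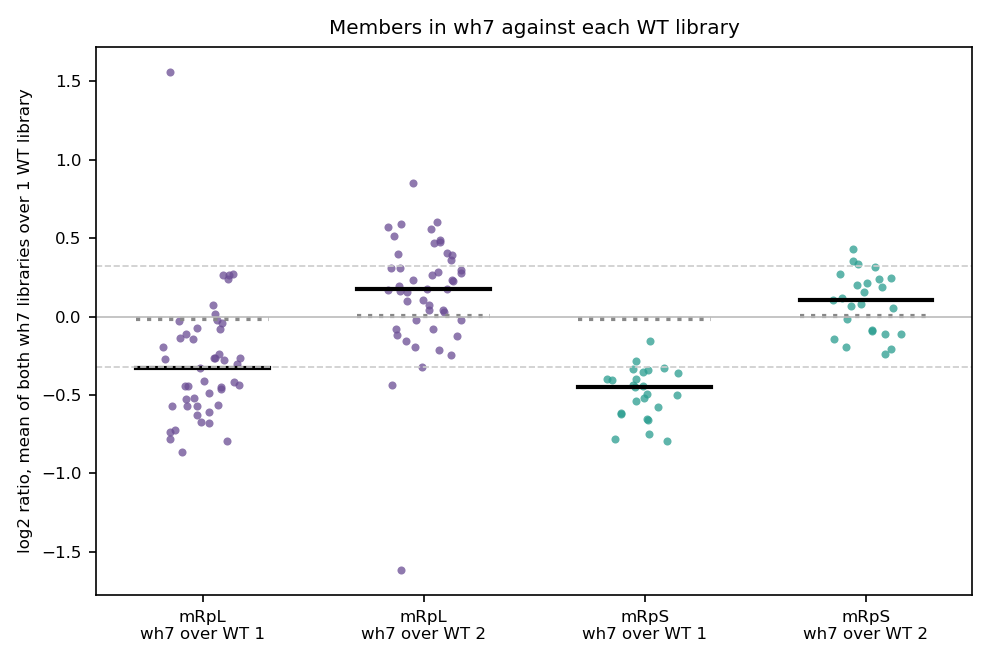
Log2 ratio of the mean of both wh7 libraries over each single WT library (vertical axis), 1 point per member, for mRpL and mRpS genes. Black bars mark the members' medians (-0.32 and 0.17 for mRpL, -0.45 and 0.11 for mRpS), dotted grey bars the medians over all genes tested, and dashed lines a level 25% higher or 20% lower.

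Both wh7 libraries were below both WT libraries for 9 mRpL and 7 mRpS genes, against 22.9% of all genes, and above both for 4 mRpL and 0 mRpS genes, against 23.8%. Those below were mRpL9, mRpL10, mRpL16, mRpL20, mRpL24, mRpL34, mRpL39, mRpL43 and mRpL48, with mRpS2, mRpS9, mRpS11, mRpS14, mRpS28, mRpS30 and mRpS31. Those above were mRpL27, mRpL28, mRpL33 and mRpL46.

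Among the large subunit genes, those of the stalk were followed first. The stalk is the flexible arm that, in bacteria, recruits the translation factors that use GTP, and it is built on L10, L11 and L12. mRpL10 had 15.2 and 13.4 CPM in wh7, against 23.8 and 19.3 CPM in WT. It had the lowest log2 fold change of all members, -0.59 ± 0.18 (SE), with an unadjusted p of 0.0269 and an adjusted p of 0.267 by edgeR. Its partners did not share this order: mRpL12 had 18.4 and 19.7 CPM in wh7, against 28.3 and 18.5 CPM in WT. mRpL11 had 6.99 and 9.12 CPM in wh7, against 9.62 and 6.08 CPM in WT, so that the wh7 values of both genes overlapped or fell within the WT values.

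The proteins that fold the RNA around the peptidyl transferase centre, where peptide bonds are made, include the counterparts of bacterial L2, L3, L4, L16 and L27. mRpL2 had 15.3 and 17.4 CPM in wh7, against 17.2 and 11.7 CPM in WT. mRpL3 had 25.4 and 26.8 CPM in wh7, against 25.8 and 18.6 CPM in WT. mRpL4 had 15.5 and 17.1 CPM in wh7, against 19.6 and 16.6 CPM in WT. All 3 overlapped between the genotypes, with log2 fold changes of 0.17, 0.23 and -0.15 and adjusted p-values of 0.803, 0.688 and 0.753 by edgeR.

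mRpL16, whose bacterial counterpart contacts the incoming tRNA, had 10.5 and 10.3 CPM in wh7, against 12.6 and 11.4 CPM in WT. mRpL27, whose bacterial counterpart reaches towards the peptidyl transferase centre, had 8.74 and 10.5 CPM in wh7, against 7.97 and 6.50 CPM in WT. The groups did not overlap in either gene and lay in opposite orders, at log2 fold changes of -0.20 ± 0.15 and 0.41 ± 0.20 (SE). Neither passed the test, with adjusted p-values of 0.648 and 0.458 by edgeR.

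mRpL33 had the highest log2 fold change of all members, 0.43 ± 0.22 (SE), with 4.32 and 4.55 CPM in wh7, against 3.67 and 2.91 CPM in WT (adjusted p = 0.467 by edgeR). mRpL41 followed mRpL27, with 9.87 and 11.1 CPM in wh7, against 11.1 and 5.80 CPM in WT. The high mRpL41 value in WT replicate 1 placed the groups in overlap. mRpL46, which in mammals sits in the central protuberance at the top of the subunit, had 16.59 and 16.04 CPM in wh7, against 13.8 and 13.4 CPM in WT, with the 2 libraries of each genotype close together.

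At the lower end, mRpL48, another component of the central protuberance in mammals, had 6.01 and 6.25 CPM in wh7, against 10.7 and 7.00 CPM in WT. mRpL24, at the exit of the peptide tunnel in bacteria, had 23.4 and 24.7 CPM in wh7, against 36.6 and 30.0 CPM in WT, a log2 fold change of -0.47 ± 0.17 (SE) with an unadjusted p of 0.0417 and an adjusted p of 0.322 by edgeR. mRpL10 and mRpL24 were the only members with an unadjusted p under 0.05. mRpL34 had the fewest counts of all members, 44 and 68 in wh7, against 101 and 60 in WT, and its log2 fold change of -0.58 had an SE of 0.43.

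Counted per gene, mRpL49 and mRpL28 hardly varied. The study lists a transcript of mRpL49, and a transcript of mRpL27, among ribosomal transcripts higher in wh7. Counts per gene do not measure transcripts apart. mRpL49 had 9.71 and 8.90 CPM in wh7, against 9.47 and 8.33 CPM in WT. mRpL28, the mRpL gene with the most reads per length, had 55.7 and 54.9 CPM in wh7, against 52.5 and 51.3 CPM in WT, with a log2 fold change of 0.09 ± 0.13 (SE). mRpL50, after mRpL53 the mRpL gene with the widest gap between the WT libraries, had 8.54 and 10.7 CPM in wh7, against 15.3 and 7.26 CPM in WT, so the WT values lay 2.11-fold apart around both wh7 values.

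mRpL53 behaved unlike every other member. It had 210 and 2298 counts in wh7 replicates 1 and 2, against 234 and 1969 in WT replicates 1 and 2, a 9.91-fold difference between the wh7 libraries and a 9.12-fold difference between the WT libraries in scaled CPM. In the BDGP6.54 annotation, all 829 exon bases of mRpL53 on chromosome arm 2R also belong to another gene on the same strand, CG33155. That gene had 2232 and 651 counts in wh7, against 2833 and 268 in WT, the opposite alternation. The share of the pair's counts given to mRpL53 was 8.6% and 77.9% in wh7, against 7.63% and 88.0% in WT. The sum of the pair was 26.2 and 28.7 CPM in wh7, against 31.4 and 24.8 CPM in WT, with both wh7 libraries between the WT libraries and WT replicate 1 highest, an order shown by 36 of 72 members. Reads from shared exons can be given to either gene, so the single values of mRpL53 are uncertain and only the sum is comparable between libraries. For the sum the log2 fold change was -0.04 ± 0.18 (SE), against 0.02 ± 1.42 for mRpL53 counted apart. Of all genes tested, 35 differed at least 4-fold between replicates 1 and 2 in the same direction in both genotypes, and mRpL53 was the only member among them. Differences of at least 4-fold in opposite directions were found for 48 genes, 0 of them members.

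**Figure D3:**
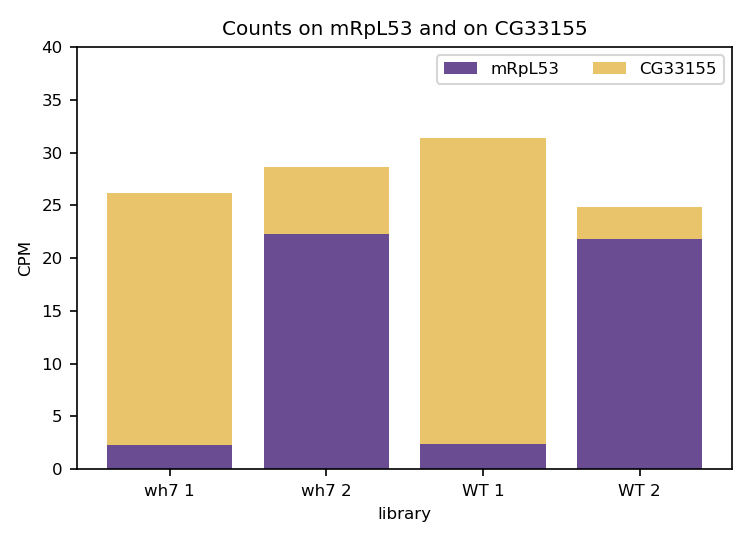
Stacked bars of CPM given to mRpL53 and to CG33155 in each of the 4 libraries. The share on mRpL53 was 8.6% and 77.9% in wh7, against 7.63% and 88.0% in WT, while the height of the whole bar stayed between 24.8 and 31.4 CPM.

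Other members also share exon bases with neighbours. In the same annotation, 43 of 72 members overlap an exon of another gene, 3 of them on the same strand, and whether the counting used the strand is not given in the sources used here. mRpS24 shares 55.3% of its exon bases with TBC1d7 on the opposite strand. The 19 mRpL genes with no such overlap had a median log2 fold change of 0.05, with 10 above 0, against -0.15 over the 28 that overlap. Of the 9 mRpL genes below both WT libraries, 8 overlap another gene, as do 28 of all 47. The shared part of these 8, all of it on the opposite strand, ran from 0.3% of exon bases in mRpL39 to 20.8% in mRpL48. Its bearing on their counts was not tested. The median over the 10 mRpS genes with no overlap was -0.23, close to that of all 25. The small negative median of the mRpL genes thus depended on which members were included, whereas the ratios to the single WT libraries kept their signs, at -0.27 and 0.23 for the 19 mRpL genes and -0.53 and 0.22 for the 10 mRpS genes.

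Among the small subunit genes, those of the head and the platform have bacterial counterparts that hold the messenger and the tRNAs. mRpS7, of the head, had 26.5 and 27.0 CPM in wh7, against 33.8 and 24.8 CPM in WT. mRpS9, also of the head and the small subunit member with the most reads per length, had 51.3 and 50.4 CPM in wh7, against 61.7 and 56.2 CPM in WT, and the groups did not overlap (log2 fold change -0.21 ± 0.14 SE, adjusted p = 0.571 by edgeR). mRpS10, another protein of the head, had 8.78 and 11.1 CPM in wh7, against 17.1 and 7.32 CPM in WT, a 2.34-fold gap between the WT libraries that was the widest of the subunit.

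mRpS11, of the platform, had 8.31 and 9.80 CPM in wh7, against 13.5 and 10.7 CPM in WT. This was the lowest log2 fold change of the subunit, -0.41 ± 0.20 (SE), with an adjusted p of 0.458 by edgeR, and the groups did not overlap. The fly has 3 genes named after bacterial S18. mRpS18A had 7.20 and 8.82 CPM in wh7, against 13.7 and 6.71 CPM in WT. mRpS18B had 8.20 and 9.04 CPM in wh7, against 11.7 and 7.12 CPM in WT. mRpS18C had 3.47 and 4.23 CPM in wh7, against 6.46 and 3.69 CPM in WT. In all 3, WT replicate 1 was the highest library and WT replicate 2 was below at least 1 wh7 library.

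mRpS29, whose mammalian counterpart is the GTP-binding protein DAP3, had 21.4 and 21.2 CPM in wh7, against 27.2 and 18.3 CPM in WT. mRpS24 had 6.90 and 8.40 CPM in wh7, against 11.99 and 8.22 CPM in WT. The highest log2 fold changes of the subunit were those of mRpS22 (-0.02), mRpS33 (-0.05) and mRpS34 (-0.08), proteins without a bacterial counterpart. mRpS22 had 23.4 and 27.4 CPM in wh7, against 28.2 and 23.3 CPM in WT. mRpS33 had 6.92 and 6.63 CPM in wh7, against 8.71 and 5.28 CPM in WT. mRpS34 had 7.66 and 8.34 CPM in wh7, against 10.1 and 6.76 CPM in WT. All 3 had both wh7 libraries inside the WT range.

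Members with and without a bacterial counterpart were set side by side. The class followed the number in the gene symbol, which placed mRpS18A and mRpS18B among those with a counterpart. Only mRpL47, mRpL55, mRpS24 and mRpS28 were placed by the family names of their mammalian proteins. For mRpL the median log2 fold change was -0.14 over 30 genes with a counterpart and -0.07 over 17 without. For mRpS it was -0.24 over 15 genes with a counterpart and -0.12 over 10 without. All 4 groups had a negative median against WT replicate 1 (-0.38 and -0.28 for mRpL, -0.49 and -0.40 for mRpS) and a positive one against WT replicate 2 (0.19 and 0.17 for mRpL, 0.07 and 0.17 for mRpS). By chromosome arm, medians against WT replicate 1 lay between -0.46 on 3L, over 16 members, and -0.38 on 2R, over 12 members. Against WT replicate 2 they lay between 0.045 on 2L, over 12 members, and 0.21 on 3L, so each arm kept both signs.

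A measure that needs no scaling between libraries is the ratio of the subunits within a library. Summed mRpS counts over summed mRpL counts gave 0.578 and 0.569 in wh7, against 0.643 and 0.610 in WT, a log2 difference of -0.13 beside an SD of 0.04 between libraries of a genotype. Both wh7 libraries were below both WT libraries. Without mRpL53 the ratio was 0.581 and 0.589 in wh7, against 0.645 and 0.634 in WT, and the SD within a genotype was 0.02. The mammalian counterparts of mRpS18A and mRpS30 lie in the large subunit despite their names. With these genes moved to the large subunit the ratio was 0.466 and 0.456 in wh7, against 0.495 and 0.480 in WT. Using only members without exon overlap it was 0.610 and 0.632 in wh7, against 0.754 and 0.694 in WT. The genotypes did not overlap under any of these. With so few libraries, a random order would leave the genotypes without overlap in 33.3% of cases. These choices of members draw on the same counts, so they are not separate evidence. The ratio was also chosen after the members' values had been seen, and it is given without a test.

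**Figure D4:**
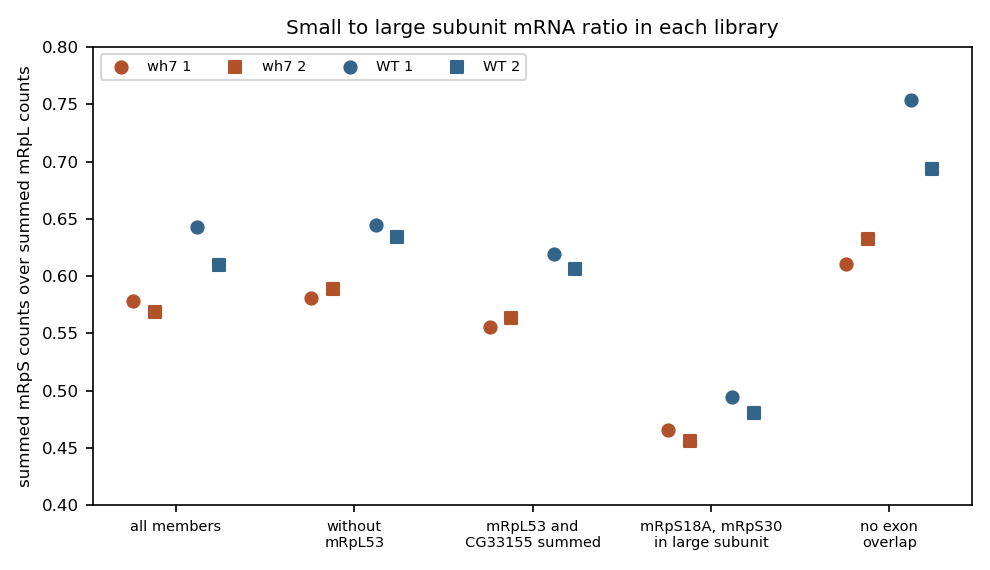
Summed mRpS counts over summed mRpL counts (vertical axis) in each of the 4 libraries, for 5 ways of choosing the members. With all members the ratio was 0.578 and 0.569 in wh7, against 0.643 and 0.610 in WT, and in each way both wh7 points lie below both WT points.

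Levels were compared between genes as CPM per kilobase of exon in the BDGP6.54 annotation. Members of an assembled ribosome are mostly needed in equal numbers, but their messages were not equally abundant. The median level of the mRpL genes was 14.8 CPM per kilobase in wh7, against 14.4 in WT, and that of the mRpS genes 13.8 in wh7, against 16.6 in WT. The mRpL median in wh7 was the level of mRpL53 itself, whose single values are uncertain. Taken gene by gene, the median log2 fold change of the mRpL genes was -0.13. The quartiles of the mRpL genes were 10.4 and 17.4 in wh7, against 10.6 and 18.8 in WT. The highest levels in both genotypes were those of mRpL28 (47.3 in wh7, against 44.4 in WT) and mRpS9 (39.3 in wh7, against 45.6 in WT), mRpL28 leading in wh7 and mRpS9 in WT. Next came mRpL22 in wh7 (32.5, against 30.2 in WT) and mRpL24 in WT (27.5 in wh7, against 38.1 in WT). The lowest were those of mRpL34 (1.73 in wh7, against 2.60 in WT) and mRpL21 (4.22 in wh7, against 4.07 in WT). Cytosolic ribosomal protein genes stood far higher, with a median per library of 527 and 519 CPM per kilobase in wh7, against 456 and 390 in WT.

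Genes that work beside the mitochondrial ribosome were taken from lists of translation factors, aminoacyl-tRNA synthetases and factors that copy or transcribe mitochondrial DNA. The list of translation factors also held bsf, OXA1L, mtTFB1 and mtTFB2, which have other roles, and its counts and medians include them. None of the 12 translation factors, 15 synthetases and 9 maintenance and transcription genes tested passed the edgeR test, and none had an unadjusted p under 0.05. DESeq2 called 0 genes of these lists. Median log2 ratios were -0.37, -0.27 and -0.33 against WT replicate 1, and 0.17, 0.07 and 0.14 against WT replicate 2, in the same order of lists. bsf, which binds mitochondrial messages, had log2 ratios of -0.76 and 0.37 against WT replicates 1 and 2. mEFG1, the elongation factor that moves the ribosome along the message, had -0.92 and 0.12. OXA1L, which inserts new proteins into the inner membrane, had -0.73 and 0.21. mtSSB, the single-stranded DNA-binding protein of mitochondria, had -0.84 and 0.60.

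Some genes of these lists did not take this order. mIF3, an initiation factor, was above both WT libraries in mean, at 0.21 and 0.33, and mtTFB2, a transcription factor of mitochondrial DNA, was below both, at -0.42 and -0.60. Ribosomal protein genes of the mitochondrion that carry other symbols were also looked up. tko, the counterpart of bacterial S12, had log2 ratios of -0.06 and 0.24 against WT replicates 1 and 2, and bonsai, the counterpart of S15, had -0.63 and -0.02. CG4866, for which RefSeq gives mRpS4 as a synonym and which was added after values had been seen, had -0.81 and 0.57.

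The messages that the mitochondrial ribosome translates mostly stood in the reverse order. Over the 13 protein-coding genes of mitochondrial DNA, the median log2 ratio was 0.35 against WT replicate 1 and -0.24 against WT replicate 2, and in 13 of 13 genes WT replicate 1 was not above WT replicate 2. Of these genes, 9 were above WT replicate 1 and below WT replicate 2, 3 (mt:CoI, mt:CoII and mt:CoIII) were above both and 1 (mt:ATPase6) was below both. The median log2 fold change of these genes was -0.03, with 0 called by edgeR, 0 by DESeq2 and 0 at an unadjusted p under 0.05 in edgeR. The study made its libraries with an mRNA kit, so the levels of mitochondrial ribosomal and transfer RNAs in them are uncertain. With the genes of those RNAs included, 28 genes of mitochondrial DNA were tested, the median log2 fold change was 0.24 and 20 were above 0. Of these 28, 0 were called by edgeR and 3 by DESeq2, which called 859 of all 10795 genes. At an unadjusted p under 0.05 in edgeR, 6 were higher and 0 lower, against 7.23% and 7.32% of all genes. In 13, both wh7 libraries were above both WT libraries, against 23.8% of all genes. mt:CoI, a core subunit of cytochrome c oxidase, had log2 ratios of 0.42 and 0.17, and mt:ND2, a subunit of complex I, had 0.70 and -0.82. Over the 63 nuclear genes for oxidative phosphorylation subunits tested, the median was 0.12 against WT replicate 1 and 0.05 against WT replicate 2, with 0 called by edgeR and 1 by DESeq2, and, at an unadjusted p under 0.05 in edgeR, 1 lower and 2 higher.

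Cytosolic ribosomal protein genes gave positive medians against both WT libraries. The median log2 ratio was 0.27 and 0.43 against WT replicates 1 and 2 over the 51 RpL genes tested, and 0.33 and 0.45 over the 34 RpS genes. Both wh7 libraries were above both WT libraries for 45 of 51 RpL and 31 of 34 RpS genes, beside the 23.8% of all genes given above. At an unadjusted p under 0.05 in edgeR, 21 RpL and 18 RpS genes were higher in wh7, against 7.23% of all genes. In the other direction 0 were lower, against 7.32%. None passed the adjusted threshold of edgeR's test. DESeq2 called 3 RpL and 5 RpS genes, against 859 of all 10795 genes. Most cytosolic genes thus separated the genotypes. Of the 72 mitochondrial members, 36 had both wh7 libraries between the WT libraries. Both lay below both WT libraries for 16 members and above both for 4, and the order was mixed for 16.

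**Figure D5:**
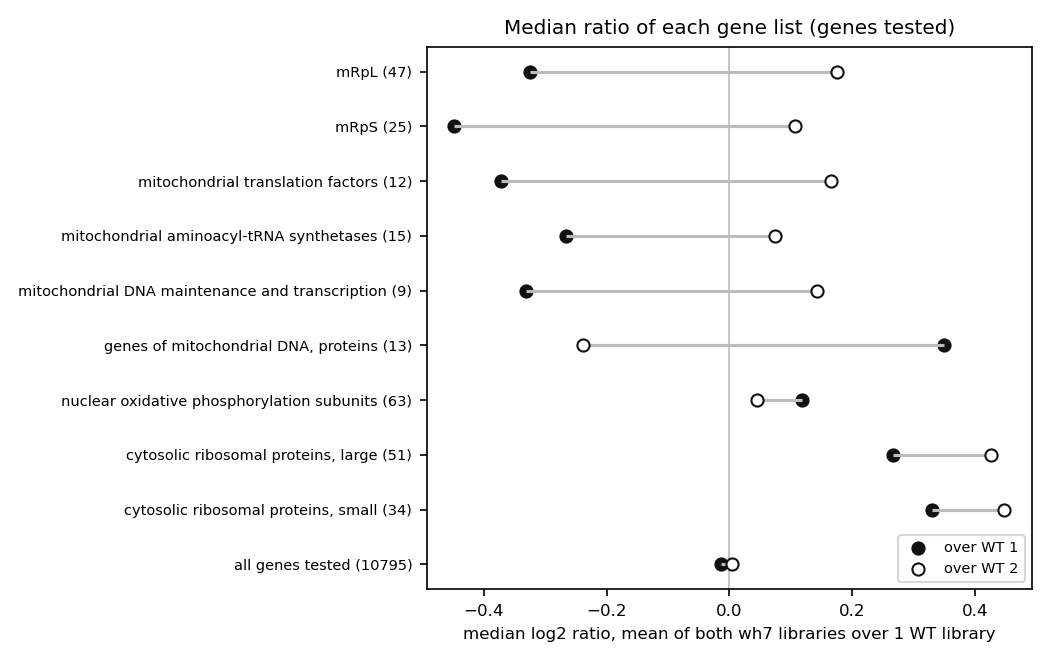
Median log2 ratio of the mean of both wh7 libraries over WT replicate 1 (filled points) and over WT replicate 2 (open points), for each gene list with its number of genes tested. For mRpL and mRpS the points lie on opposite sides of 0, and for cytosolic ribosomal proteins both lie above 0.

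Levels outside the members also differed between the WT libraries. Fib, the nucleolar methyltransferase that modifies ribosomal RNA, was picked after values had been seen and had log2 ratios of -1.76 and 0.38 against WT replicates 1 and 2. Fib had the lowest ratio to WT replicate 1 among 11 nucleolar and RNA polymerase I genes, a list also added later. Their medians were -1.15 and 0.33 against WT replicates 1 and 2. In 11 of 11, both wh7 libraries lay between the WT libraries, WT replicate 1 being the higher, and edgeR called 0. The 4 Malpighian tubule markers, from the excretory tubules attached to the gut, summed to 54.1 and 58.0 CPM in wh7, against 121 and 43.0 CPM in WT, and Uro, a urate oxidase gene of the tubule, had 35.3 and 45.9 CPM in wh7, against 108 and 17.6 CPM in WT. The 8 genes of dividing cells summed to 21.9 and 23.4 CPM in wh7, against 31.3 and 29.7 CPM in WT, and the 6 enteroendocrine genes to 148 and 153 CPM in wh7, against 337 and 329 CPM in WT, so that neither list set WT replicate 1 apart. The 6 fat body markers summed to 4479 and 4757 CPM in wh7, against 7387 and 11850 CPM in WT. The 4 hemocyte markers summed to 41.1 and 34.8 CPM in wh7, against 25.7 and 49.3 CPM in WT, and the 3 copper cell markers to 447 and 490.0 CPM in wh7, against 424 and 291 CPM in WT. Fat body and hemocyte markers were thus lower, and copper cell markers higher, in WT replicate 1 than in WT replicate 2. The part of these levels in the members' values was not tested.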

How the data were processed

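The data were 4 RNA-seq libraries from guts of females, 2 of wh7 and 2 of WT. Per the labels, the authors trimmed reads with Trimmomatic 0.36, aligned them with HISAT2 and quantified them with StringTie 2.1.4, and they deposited whole-number counts per gene, not normalized. The genome build, the use of the strand and how the estimates became whole counts are not given in the sources used here. The deposited table of the authors' own comparison (log2 fold changes, p-values and scaled counts) was not used. Of 17807 gene IDs, 17710 matched a FlyBase symbol and 97 did not; mRpS5 was not analysed here. Exon lengths and overlaps came from the BDGP6.54 annotation, and no coordinates are given because the build is not named. Genes were kept with filterByExpr (10795 genes), scaled by TMM (factors 0.986 and 1.01 for wh7, 1.04 and 0.963 for WT) and tested with edgeR 4.0.16 in R 4.3.3 by the quasi-likelihood test, genotype being the only term. SE is the log2 fold change over the square root of F. DESeq2 1.42.0 was an alternative. A ratio to a single WT library has no replicate on that side and was given no test. Precision rests on 2 libraries per genotype, with the members' lowest count at 44. The p-values set the difference between genotypes against the spread between these pools only, estimated with information shared across genes.

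The members and the lists were chosen with earlier results of these data known. Members named singly were, in each subunit, the 3 highest and 3 lowest log2 fold changes at a mean of at least 50 counts, the 2 with the largest difference between the WT libraries, and a set of genes named for their roles. Other members were named after their values had been seen. The fitting was tested on simulated data. Alternatives were other scalings, count filters, DESeq2, a replicate block and each library left out.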

Additional observations from a re-analysis of the deposited data

How the results depend on the processing

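No member was called under any alternative run: other scalings, other filters, DESeq2, a replicate block, a crossed block, a library left out, or mRpL53 and CG33155 summed. Over all genes, 52 calls became 30 with no count filter and 859 with DESeq2. With a library left out they ranged between 0 (either wh7 replicate) and 937 (WT replicate 2), with 447 without WT replicate 1. The replicate block called 0 genes, with medians of -0.075 for mRpL and -0.21 for mRpS. The labels do not say whether libraries with the same replicate number were made together. The deviations of these libraries correlated at -0.155 over all genes tested, which cannot tell whether they were. A crossed replicate block, added after seeing the data, called 99 genes and 0 members. A lone library was assumed to vary like the other genotype.

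Leaving out 1 library gave medians from -0.33 to 0.19 for mRpL and from -0.455 to 0.11 for mRpS, positive only without WT replicate 1. Members above 0 numbered between 7 and 34 for mRpL, and between 0 and 16 for mRpS. With 1 wh7 library left out, the median ratio to WT replicate 1 was -0.44 to -0.31 for mRpL and -0.54 to -0.39 for mRpS. That to WT replicate 2 was 0.12 to 0.26 for mRpL and 0.002 to 0.19 for mRpS. Among members free of exon overlap, a choice made after seeing the data, the mRpL median was 0.053 and the mRpS ratios were -0.53 and 0.22. The log2 difference of the small to large subunit ratio was -0.13, and it was -0.081 with mRpS18A and mRpS30 in the large subunit, -0.17 with medians in place of sums and -0.22 without overlap. The causes were not tested.

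With all libraries kept, 3 of 190 values of the 27 members named by rule changed sign. mRpL11 was at -0.004 with upper quartile factors, and mRpL53 was at -0.027 with the replicate block and at -0.035 summed with CG33155. Without WT replicate 1, 12 of the 27 changed sign, against 4 without WT replicate 2 and 2 without either wh7 replicate. Leaving out libraries moved mRpL2 between -0.084 and 0.48, mRpL11 between -0.26 and 0.41, mRpL12 between -0.58 and 0.045, mRpL41 between -0.082 and 0.86, mRpL49 between -0.035 and 0.16, mRpL50 between -0.68 and 0.41, and mRpL53 between -2.43 and 2.345. It moved mRpS7 between -0.345 and 0.11, mRpS10 between -0.79 and 0.44, mRpS18A between -0.78 and 0.255, mRpS18B between -0.445 and 0.28, mRpS18C between -0.75 and 0.060, mRpS22 between -0.16 and 0.12, mRpS29 between -0.36 and 0.21, mRpS33 between -0.37 and 0.36, and mRpS34 between -0.35 and 0.24.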
